A study of Mus musculus with 12 samples.

Results

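Wnt signalling was followed through its secreted ligands, its cell surface receptors and its secreted inhibitors in the mouse brain. The genes were chosen by their symbols alone, which are Wnt, Fzd (Frizzled), Lrp5 and Lrp6, Sfrp1 to Sfrp5 and Dkk1 to Dkk4, and 39 of the 55385 genes of the table carried such a symbol. They are 19 Wnt ligands, 10 Frizzled receptors, the 2 co-receptors Lrp5 and Lrp6, 4 secreted Frizzled-related proteins and 4 Dickkopf proteins. Sfrp3 is listed under the symbol Frzb, so the choice by symbol left it out.

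Wnt proteins are lipid-carrying secreted glycoproteins that bind the cysteine-rich domain of Frizzled receptors. In the canonical branch they bring Frizzled and Lrp5 or Lrp6 together, which stops the destruction of beta-catenin, and beta-catenin then works with TCF/LEF factors at target genes. Sfrp proteins carry a Frizzled-like domain and bind Wnts outside the cell, while Dkk1, Dkk2 and Dkk4 bind Lrp5 and Lrp6. In the brain the pathway is known for patterning the embryo, building the blood-brain barrier and shaping synapses in the adult.

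Poly(A) RNA from the brain of 12 wild-type male mice (strain C57/BL6J, 8 weeks old when bought) was sequenced, with 3 mice in each of 4 groups and 1 library per mouse. The C_W mice were given water and no stress, the C_O mice had krill oil by gavage (daily dose 200 mg/kg, over 5 weeks), the MS_W mice water and chronic unpredicted mild stress (CUMS) for 4 weeks, and the MS_O mice both krill oil and CUMS. Each group is a set of single animals from which, by the study's account, the whole brain was taken. The pairs of comparisons that use the same group share its mice. Expression is given in FPKM, a fragment number scaled to transcript length and to the mapped fragments of the library, and 0.0001 is the value at which the table lists a gene without an estimate.

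The libraries held 50912906 to 75678721 estimated counts (median 59331216). These are sums of estimates and not read numbers, since the highest exceeds every raw read number that the study lists for a library. C_O72 and MS_W95 stood apart from the rest. Pearson's r of log2(FPKM + 1) over genes reached 0.97 for this pair. The other 10 correlated with each other at 0.959 or more and with the pair at 0.937 or less. A list of 10 cerebellar marker genes had a mean log2(FPKM + 1) of 4.85 in C_O72 and 6.54 in MS_W95 against 0.99 to 1.84 in the other 10 libraries. A list of 10 hindbrain markers, mainly Hox genes, was at 2.41 and 1.42 against 0.00 to 0.05, so the defining markers of the hindbrain were at or near 0 in 10 libraries labelled as brain, and the list of 5 pan-neuronal markers was at 6.67 to 7.21 in all 12. Every main count is therefore given with 12 libraries and again without C_O72 and MS_W95, which leaves 2 mice in the C_O and MS_W groups. In whole tissue, fewer cells of a type and less RNA per cell cannot be told apart.

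The promoter sequences of the genes with the smallest p in the comparisons that had an entry in RefSeq (GRCm38.p6) are shown here, because these genes were called in different directions. Each line holds 150 bases that end at or just before the first annotated exon, and capitals mark the GC box (GGGCGG on either strand), the site of Sp1-type factors. Wnt9a lies at chr11:59306778-59306927 on the plus strand, and Wnt7a at chr6:91411364-91411513, Wnt10b at chr15:98778151-98778300 and Fzd5 at chr1:64737752-64737901 on the minus strand.
Wnt9a: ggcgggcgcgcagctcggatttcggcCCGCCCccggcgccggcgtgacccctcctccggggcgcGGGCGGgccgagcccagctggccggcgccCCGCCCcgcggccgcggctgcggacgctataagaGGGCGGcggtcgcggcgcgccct
Wnt7a: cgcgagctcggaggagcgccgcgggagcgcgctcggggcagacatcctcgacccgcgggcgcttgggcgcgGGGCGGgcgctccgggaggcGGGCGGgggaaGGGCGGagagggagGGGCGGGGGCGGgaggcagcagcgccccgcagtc
Wnt10b: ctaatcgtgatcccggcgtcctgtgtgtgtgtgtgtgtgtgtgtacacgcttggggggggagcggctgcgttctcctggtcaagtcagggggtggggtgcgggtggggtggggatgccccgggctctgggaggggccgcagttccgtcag
Fzd5: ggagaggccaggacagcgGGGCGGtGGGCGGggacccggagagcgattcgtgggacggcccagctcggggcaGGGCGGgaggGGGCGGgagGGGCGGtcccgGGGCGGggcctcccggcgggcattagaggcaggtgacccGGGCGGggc

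All 4 stretches are rich in G and C, at 84.7% for Wnt9a, 82.7% for Wnt7a, 80.7% for Fzd5 and 67.3% for Wnt10b. The GC box matched 4 times in the Wnt9a stretch, 5 times in that of Wnt7a, 7 times in that of Fzd5 and not at all in that of Wnt10b. Over the 250 bases before the start, 76% of the 25 members with an entry held a GC box against 35.4% of 27025 genes, and the median G and C content was 71.6% for the members against 52% for all genes. The core of the TCF/LEF site, CTTTGA on either strand, was found in 16% of the members (Dkk1, Fzd1, Wnt11 and Wnt5b) and in 15.8% of all genes. A match is only a run of letters in this window, and none was tested as a binding site.

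The 39 members were expressed at modest levels, with 1 exception. Dkk3, a divergent Dickkopf protein that is abundant in neurons, had a mean of 68.7 FPKM over the 12 libraries, while the other 20 members with a mean of at least 1 lay between 1 and 7. Over all libraries, Wnt7b (6.87), Wnt7a (5.83), Wnt9a (4.3) and Wnt4 (3.43) had the highest means of the ligands. The order of the group means differed, since Wnt9a (7.18) was first in C_W, where Wnt10a (4.49) was above Wnt7a (3.41). In MS_W, Wnt7a (8.16) was first and Wnt9a (1.84) was below Wnt3 (2.1). The order of Wnt9a and Wnt3 in MS_W came from MS_W95 (0.23 against 5.06). In MS_W31 and MS_W75 Wnt9a was above Wnt3 (2.91 and 2.39 against 0.497 and 0.755). Wnt7a and Wnt7b are known as the ligands that guide the growth of brain vessels and the blood-brain barrier.

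Among the receptors, Fzd3 (mean 6.46 FPKM), which is known for its part in axon guidance, came before Fzd1 (3.54) and Fzd2 (3.42). The co-receptor Lrp6 was at 2.94 and Lrp5 at 1.03. Of the Sfrp genes, Sfrp1 had a mean of 3.17, Sfrp5 of 2.51, Sfrp2 of 1.3 and Sfrp4 of 0.446. The Sfrp5 mean includes 12.7 FPKM in C_O72, its median over the libraries other than C_O72 and MS_W95 was 1.03, and its group mean was below that of Sfrp2 in C_W (0.504 against 0.852) and MS_O (1.25 against 1.62). The ranges of neighbours in these orders overlapped over the libraries, except that Lrp6 with 2.47 to 3.66 FPKM was clear of Lrp5 with 0.761 to 1.41.

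**Figure D1:**
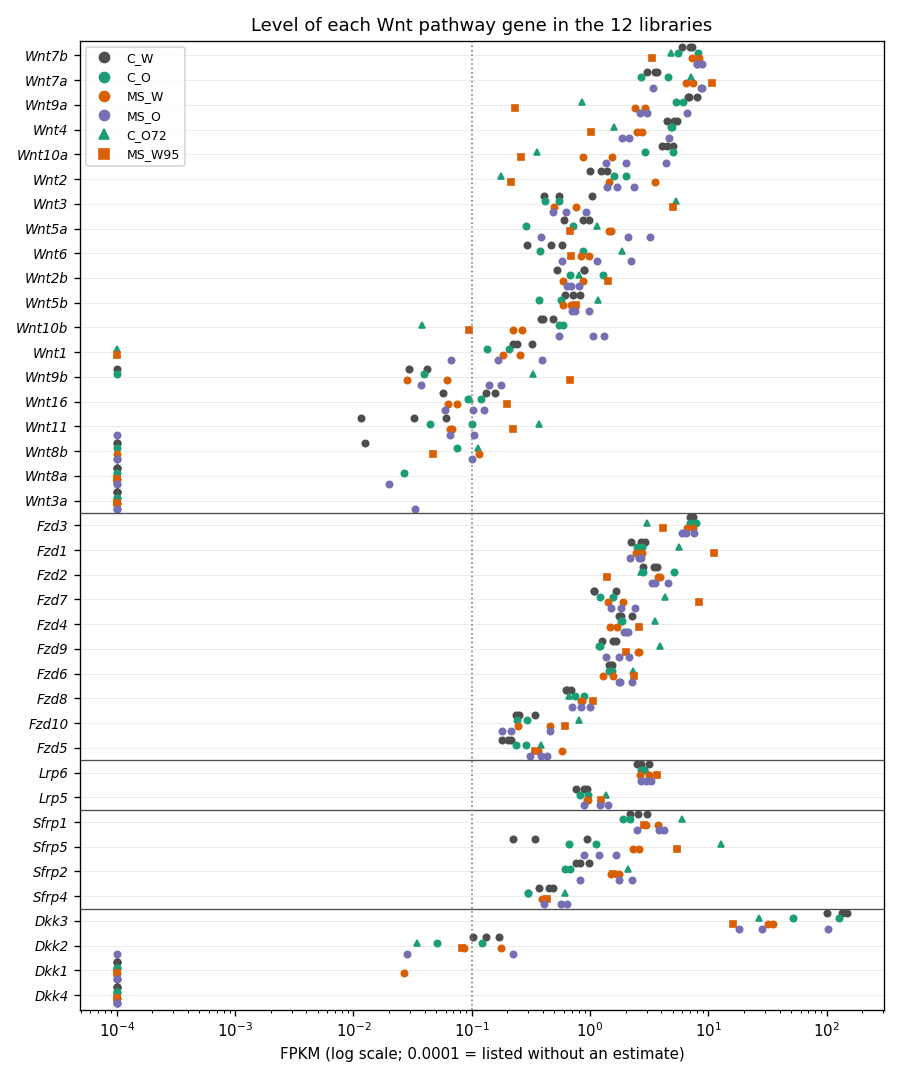
FPKM (log axis) of the 39 genes in the 12 libraries, with genes grouped as ligands, Frizzled receptors, co-receptors, Sfrp and Dkk genes and ordered by mean within each. Points are single mice, coloured by group, C_O72 and MS_W95 have their own symbols, and the dotted line is the mean of 0.1 FPKM required for a test. Dkk3 lies far to the right of all other genes, and C_O72 and MS_W95 lie at the edges of the range for many genes.

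The 33 members with a mean of at least 0.1 FPKM were tested, and their median level was 1.5 FPKM against 2.38 for all 21393 genes tested. They comprise 15 ligands, 10 receptors, both co-receptors, 4 Sfrp genes and 2 Dkk genes. The 6 others were not tested. Wnt11 just missed the limit at 0.0959, Wnt8b (0.0385) was listed without an estimate in 6 libraries and Wnt8a in 10, Wnt3a and Dkk1 had an estimate in 1 library each, and Dkk4 had none. The tested members with a mean under 1 FPKM were Wnt6, Wnt2b, Fzd8, Wnt5b, Wnt10b, Sfrp4, Fzd10, Fzd5, Wnt1, Wnt9b, Wnt16 and Dkk2, down from 0.91 to 0.101.

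The comparison of C_W with MS_W asked what CUMS changed in mice on water, and it held most of the calls. Dkk3 and the ligands Wnt10a, Wnt9a and Wnt4 were lower in MS_W, and the ligand Wnt7a, the receptors Fzd5 and Fzd8 and the Wnt-binding Sfrp5 were higher. These were 8 of 33 members with an unadjusted limma p under 0.05, which is 24.2%, against 10.5% of all genes tested. The 4 higher members stand against 6.71% of all genes called higher, and the 4 lower ones against 3.79% called lower. The study's DEG criteria also ask for a log2 ratio of group means beyond 1 in either direction, and by them 7 members were called (all but Fzd8) against 4.59% of all genes. No member passed an adjusted p of 0.05 in limma or edgeR, while DESeq2 passed Dkk3 and Fzd5. At an unadjusted p under 0.05, edgeR called 8 members (9.37% of all genes) and DESeq2 10 (11.7% of all genes).

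These counts rested in part on single mice. Without MS_W95, 3 members had a p under 0.05 (9.08% of all genes did) and 3 were DEGs (4.64% of all genes), and without C_W64 5 members had a p under 0.05 (6.83% of all genes). Without both C_O72 and MS_W95 the count was 10 of 33, against 15.4% of all genes, with Fzd9, Sfrp2 and Wnt2 added and Fzd8 lost. By the DEG criteria 7 were called, against 5.81% of all genes, with Wnt2 in and Wnt4 out of the set found with 12 libraries. The median log2 fold change (log2FC) of the members was 0.13, against 0.06 over all genes, and without both libraries it was 0.03 against 0.04.

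Values below are FPKM in the order C_W1, C_W64, C_W70, then C_O15, C_O30, C_O72, then MS_W31, MS_W75, MS_W95, then MS_O13, MS_O46, MS_O78. Wnt10a (chr1:74791516-74804179, plus strand), a ligand known from teeth and hair, was at 4.99, 4.05 and 4.44 in C_W, 4.97, 2.93 and 0.358 in C_O, 0.863, 1.52 and 0.26 in MS_W, and 4.35, 1.36 and 2.03 in MS_O. Every MS_W mouse lay below every C_W mouse, and MS_O13 was like the controls while the other 2 MS_O mice were low. The group mean was 4.49 ± 0.472 in C_W and 0.882 ± 0.631 in MS_W (SD, n = 3), or 0.196 times the control, with a log2FC of FPKM + 1 of -1.60 (SE 0.49). It passed the unadjusted limma threshold, and its adjusted p was 0.328.

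Wnt9a (chr11:59306928-59333552, plus strand), known from joint formation, was at 6.82, 8.03 and 6.68 in C_W, 6.14, 5.28 and 0.847 in C_O, 2.91, 2.39 and 0.23 in MS_W, and 6.61, 2.62 and 3.01 in MS_O. The C_W mice were again above all MS_W mice, and also above all C_O mice. From C_W to MS_W the log2FC was -1.69 (SE 0.55), with an adjusted limma p of 0.357. The call was lost without MS_W95 alone, while without both C_O72 and MS_W95 the log2FC was -1.16 (SE 0.28) and it was called.

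Wnt4 (chr4:137277489-137299726, plus strand), which is needed for kidney and ovary development, took 5.08, 5.4 and 4.48 FPKM in C_W, 4.86, 4.92 and 1.59 in C_O, 2.74, 2.48 and 1.02 in MS_W, and 4.62, 1.85 and 2.12 in MS_O. Its C_W and MS_W groups did not overlap, and MS_O13 was high and the other MS_O mice low, as for Wnt10a and Wnt9a. The log2FC was -1.01 (SE 0.37) with an adjusted limma p of 0.393. The call was lost without MS_W95 and without C_W64.

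Wnt7a (chr6:91363981-91411363, minus strand) went the other way, at 3.65, 3.55 and 3.02 in C_W, 2.67, 4.56 and 7.11 in C_O, 6.46, 7.34 and 10.7 in MS_W, and 3.37, 8.69 and 8.9 in MS_O. All MS_W mice were above all C_W mice, and MS_O13 was at the level of C_W. The mean was 2.39 times that of C_W (8.16 ± 2.23 against 3.41 ± 0.341, SD, n = 3). Its log2FC was 1.03 (SE 0.35), with an adjusted limma p of 0.358, and the call was lost without MS_W95. Its close relative Wnt7b had values of 6.03, 7.2 and 6.97 in C_W, 5.58, 8.14 and 4.82 in C_O, 8.33, 7.21 and 3.36 in MS_W, and 8.76, 8.04 and 7.94 in MS_O, and its groups overlapped with a log2FC of -0.15 (SE 0.26).

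Of the ligands not called, Wnt6 was higher and Wnt10b lower in MS_W without overlap (log2FC 0.34 with SE 0.28, and -0.26 with SE 0.18). In all, the groups did not overlap for 12 of 33 members, 7 higher and 5 lower, which is 36.4% against 24.6% of all genes. The other ligands (Wnt1, Wnt2, Wnt2b, Wnt3, Wnt5a, Wnt5b, Wnt9b and Wnt16) overlapped between the groups. An exact two-sided permutation test of 3 mice against 3 cannot go below p = 0.1, so overlap is given as a description.

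**Figure D2:**
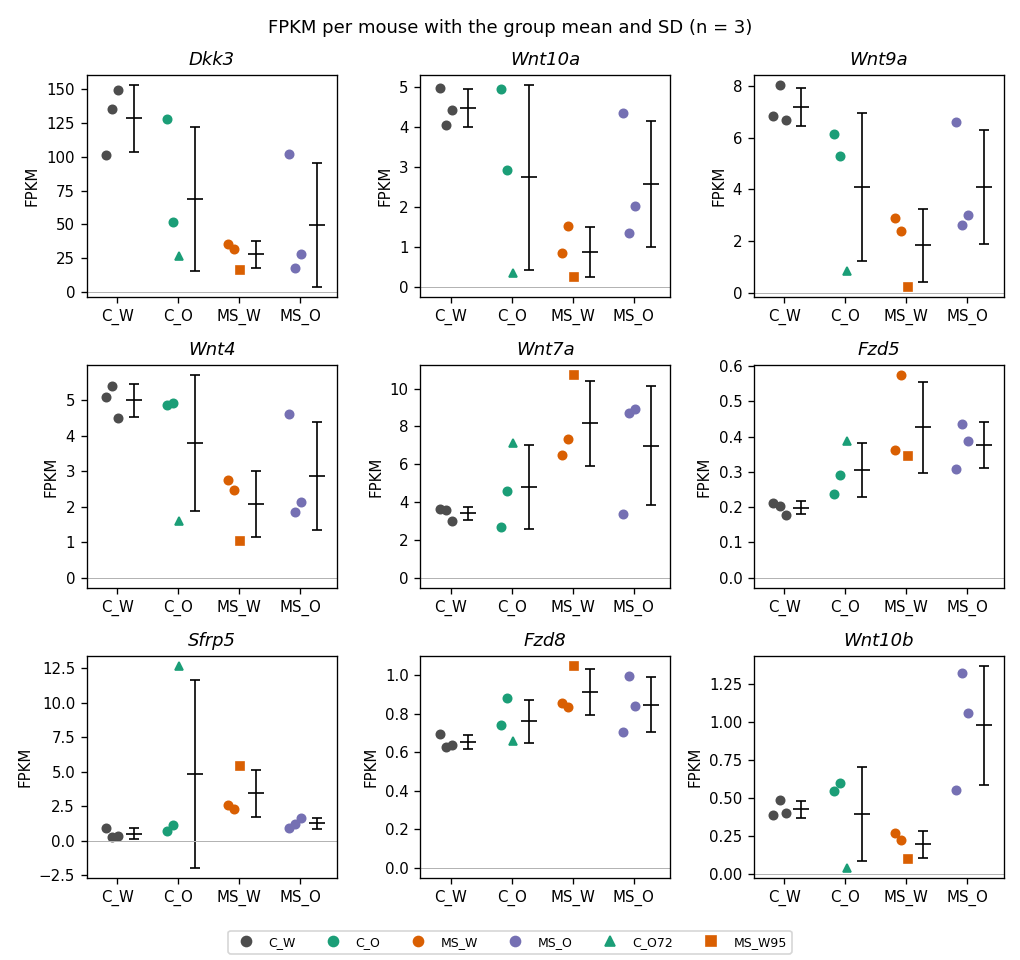
FPKM (linear axis) of the 9 members with an unadjusted limma p under 0.05 in any pairwise comparison, by group. Points are mice, black dashes and bars the mean and SD of 3 mice, the triangle C_O72 and the square MS_W95. Dkk3, Wnt10a, Wnt9a and Wnt4 are high in all C_W mice and low in all MS_W mice, Wnt7a, Fzd5, Sfrp5 and Fzd8 show the reverse, and Wnt10b is highest in MS_O46 and MS_O78.

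Among the receptors, Fzd5 (chr1:64730558-64737751, minus strand), known from eye and yolk sac development, was at 0.213, 0.204 and 0.179 FPKM in C_W, 0.236, 0.29 and 0.388 in C_O, 0.361, 0.574 and 0.344 in MS_W, and 0.308, 0.436 and 0.387 in MS_O. The C_W mice were the 3 lowest of all 12, so C_W was without overlap against C_O as well. The MS_W mean was 2.14 times the C_W mean, with a log2FC of 0.25 (SE 0.082) and an adjusted limma p of 0.357. That call was lost without MS_W75 and when each library was centred on its median, and the Fzd5 exons overlap a gene on the other strand.

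Fzd8 was at 0.693, 0.626 and 0.637 in C_W and 0.855, 0.836 and 1.05 in MS_W, which did not overlap, with a log2FC of 0.21 (SE 0.0939) and an adjusted limma p of 0.471. Its call held under 5 of 21 alternatives only. C_O had 0.741, 0.882 and 0.661 and MS_O 0.708, 0.995 and 0.839. Of these, C_O72 lay in the C_W range, and C_O30, MS_O46 and MS_O78 lay in the MS_W range. C_O15 and MS_O13 lay between the ranges of the water groups.

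The abundant receptors did not pass. Fzd3 took 6.97, 7.41 and 7.26 in C_W, 7.79, 6.99 and 3.01 in C_O, 6.57, 7.4 and 4.16 in MS_W, and 7.6, 5.94 and 6.42 in MS_O. It was within 5.94 to 7.79 in all mice but C_O72 and MS_W95. Fzd2 was at 3.66, 2.8 and 3.5, then 2.79, 5.11 and 2.68, then 3.86, 3.78 and 1.4, then 3.35, 3.54 and 4.53, and its groups overlapped in every comparison.

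The co-receptors varied little. Lrp6 was at 2.47, 2.69 and 3.16 in C_W, 2.86, 2.68 and 2.97 in C_O, 3.16, 2.65 and 3.66 in MS_W, and 2.68, 2.97 and 3.3 in MS_O, with a log2FC of 0.14 (SE 0.12) from C_W to MS_W. Lrp5 was at 0.941, 0.89 and 0.761, then 0.962, 0.815 and 1.36, then 0.952, 0.941 and 1.23, then 0.891, 1.22 and 1.41, with a log2FC of 0.13 (SE 0.13). Both overlapped between the groups in all 4 comparisons.

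Of the inhibitors, Dkk3 (chr7:112116017-112159057, minus strand) was at 101, 135 and 149 FPKM in C_W, 128, 51.8 and 26.5 in C_O, 35.4, 32 and 16.1 in MS_W, and 102, 18 and 28.4 in MS_O. The lowest C_W mouse was well above the highest MS_W mouse, and in both krill oil groups 1 mouse (C_O15 and MS_O13) was at the C_W level while the others were lower. The mean was 129 ± 24.8 in C_W and 27.8 ± 10.3 in MS_W (SD, n = 3), or 0.217 times the control. The log2FC was -2.22 (SE 0.65), with an adjusted limma p of 0.313, and over the 22 alternatives the log2FC lay between -2.43 and -1.88 and the adjusted p between 0.0408 (DESeq2) and 0.687.

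Dkk2, an Lrp-binding member, was near the limit of the test at 0.133, 0.102 and 0.171, then 0.0505, 0.123 and 0.0346, then 0.178, 0.0863 and 0.0834, then 0.225, 0.0001 and 0.0283, and its groups overlapped. Sfrp1 took 3.02, 2.54 and 2.19 in C_W, 2.19, 1.89 and 6.02 in C_O, 2.99, 3.77 and 2.86 in MS_W, and 2.5, 4.24 and 3.8 in MS_O. C_O72 was the highest library for Sfrp1, and the C_W and MS_W mice overlapped.

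Sfrp5 (chr19:42197971-42202252, minus strand) was at 0.946, 0.225 and 0.341 in C_W, 0.66, 1.12 and 12.7 in C_O, 2.59, 2.31 and 5.42 in MS_W, and 0.891, 1.19 and 1.66 in MS_O. All MS_W mice were above all C_W and all MS_O mice, and C_O72 was above every other library. The MS_W mean was 6.83 times the C_W mean, with a log2FC of 1.53 (SE 0.65) and an adjusted limma p of 0.46. Without C_O72 and MS_W95 its log2FC was 1.23 (SE 0.22), and its adjusted p of 0.0463 was the only one of a member under 0.05 in limma. Over all alternatives its adjusted p lay between 0.0463 and 0.78, and its unadjusted call was lost in 7 that left out 1 library each (C_W64, C_W70, MS_O13, MS_O46, MS_O78, MS_W31 or MS_W95).

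Markers of brain regions and of other cells moved with these genes. The list of 8 cortical markers had a mean log2(FPKM + 1) of 4.25 to 4.57 in C_W and 1.97 to 3.32 in MS_W, and it was at 4.65, 4.26 and 2.16 in C_O and 4.14, 3.02 and 3.36 in MS_O. Like Dkk3, Wnt10a, Wnt9a and Wnt4, it was high in C_O15 and MS_O13 and low in C_O72 and MS_W95. The list of 9 striatal markers was at 1.86 to 2.91 in C_W, 4.83 and 5.42 in MS_W31 and MS_W75 and 1.71 in MS_W95, and that of 10 hypothalamic markers at 0.36 to 0.54 in C_W and 2.73, 2.06 and 0.57 in MS_W. Of 18 such lists, 7 had C_W and MS_W ranges that were clear of each other, with meninges, hippocampus, hindbrain, hypothalamus and midbrain dopamine higher in MS_W and neuron and cortex lower. The meninges list was at 1.35, 1.08 and 1.20 in C_W and 1.54, 1.83 and 1.78 in MS_W (11 of 11 genes higher), the midbrain dopamine list at 1.16, 1.27 and 0.82 against 1.61, 1.48 and 2.04 (7 of 7 higher), and the neuron list at 7.19, 7.21 and 7.09 against 6.84, 6.91 and 6.82 (3 of 5 lower). The part of these regions and cells in the Wnt pathway values was not tested. The C_W libraries also had more estimated counts than the MS_W libraries (69768244 to 75678721 against 51748181 to 61608502).

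**Figure D3:**
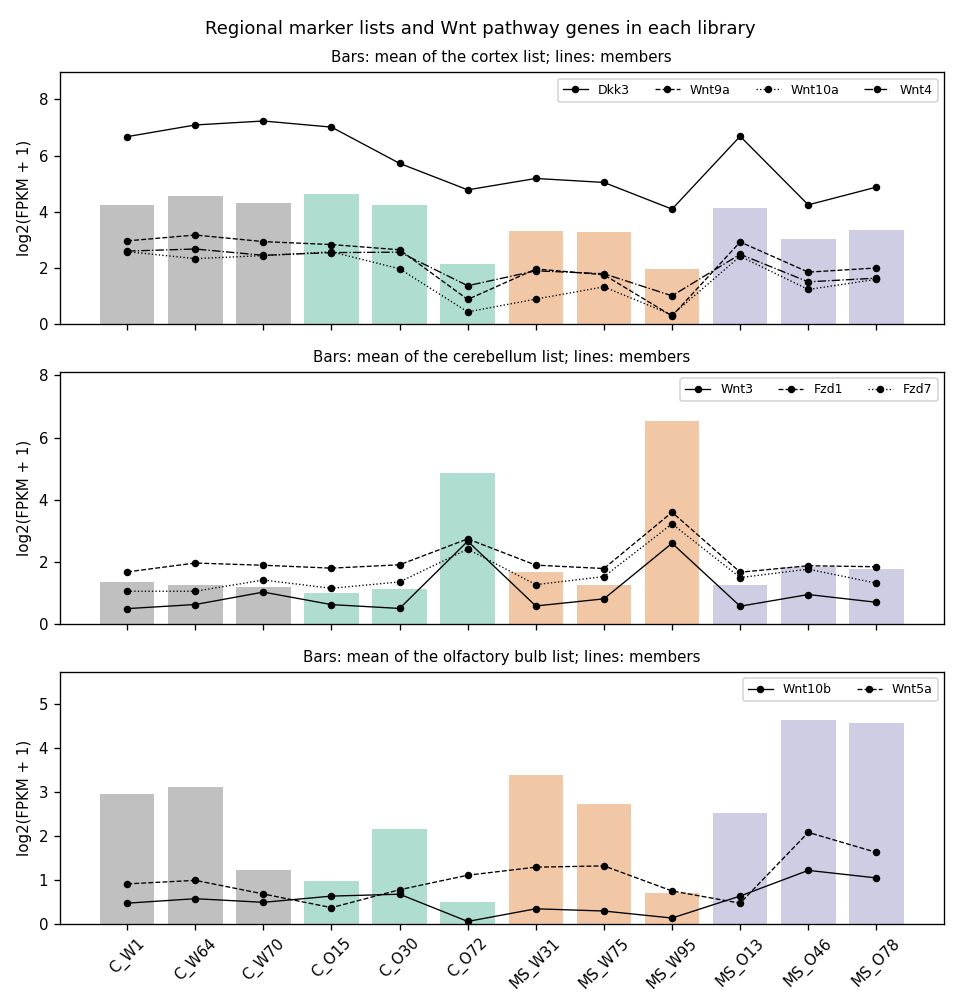
Mean log2(FPKM + 1) of the cortex, cerebellum and olfactory bulb marker lists (bars, coloured by group) with log2(FPKM + 1) of named Wnt pathway genes (lines with points) in each library. The genes were picked with their values in view. The top panel shows Dkk3, Wnt9a, Wnt10a and Wnt4 low where the cortex list is low, the middle panel Wnt3, Fzd1 and Fzd7 high in C_O72 and MS_W95, and the bottom panel Wnt10b and Wnt5a high in MS_O46 and MS_O78.

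In mice on krill oil, the comparison of C_O with MS_O gave 1 call. Wnt10b (chr15:98770712-98778150, minus strand), a ligand known for favouring bone over fat, was at 0.384, 0.485 and 0.403 in C_W, 0.547, 0.594 and 0.0381 in C_O, 0.267, 0.223 and 0.0953 in MS_W, and 0.549, 1.32 and 1.06 in MS_O. MS_O46 and MS_O78 were the 2 highest libraries, while MS_O13 was within the range of C_O. The MS_O mean was 2.48 times that of C_O (0.974 ± 0.39 against 0.393 ± 0.308, SD, n = 3), with a log2FC of 0.51 (SE 0.18) and an adjusted limma p of 0.48.

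This was 1 of 33 members, or 3.03%, against 8.88% of all genes, and it was also the only DEG, against 3.57%. In no member were C_O and MS_O without overlap, against 12.2% of all genes. At p under 0.05, edgeR called 0 members (8.54% of all genes) and DESeq2 called Sfrp5 and Wnt5a (10.6% of all genes), and no tool passed a member after adjustment. The Wnt10b call was lost in 8 of 21 alternatives, which were edgeR, DESeq2, the fit of 2 groups, a pseudocount of 0.01, the 10 libraries without C_O72 and MS_W95, and leaving out C_O72, MS_O46 or MS_O78. Its log2FC was 0.31 without C_O72. Without C_O72 4 members had a p under 0.05 (9.19% of all genes), without MS_O13 also 4 (13.8%), without MS_W95 2 (10.6%), and without MS_O46 (4.29%) or MS_O78 (5.34%) none.

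Without both C_O72 and MS_W95, 5 of 33 members had a p under 0.05, against 13.6% of all genes. This is 15.2%, near the share of all genes. The log2FC were 0.55 for Sfrp1, 0.63 for Sfrp2, 0.24 for Sfrp4, 0.30 for Wnt5b and -0.68 for Wnt4. The smallest adjusted p among them was 0.335 by limma. Under all 12 libraries the log2FC of these genes were 0.15, 0.33, 0.14, 0.11 and -0.28.

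For the 8 members called on water, the log2FC from C_O to MS_O were -0.57 for Dkk3, 0.09 for Wnt10a, 0.14 for Wnt9a, -0.28 for Wnt4, 0.45 for Wnt7a, 0.08 for Fzd5, 0.07 for Fzd8 and -0.71 for Sfrp5, and none of them passed. With C_O72 and MS_W95 left out they were -1.10, -0.52, -0.48, -0.68, 0.73, 0.12, 0.03 and 0.25, each with the sign seen on water, and Wnt4 alone was called (adjusted limma p of 0.343). The median log2FC of the members was 0.09 against 0.03 over all genes.

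**Figure D4:**
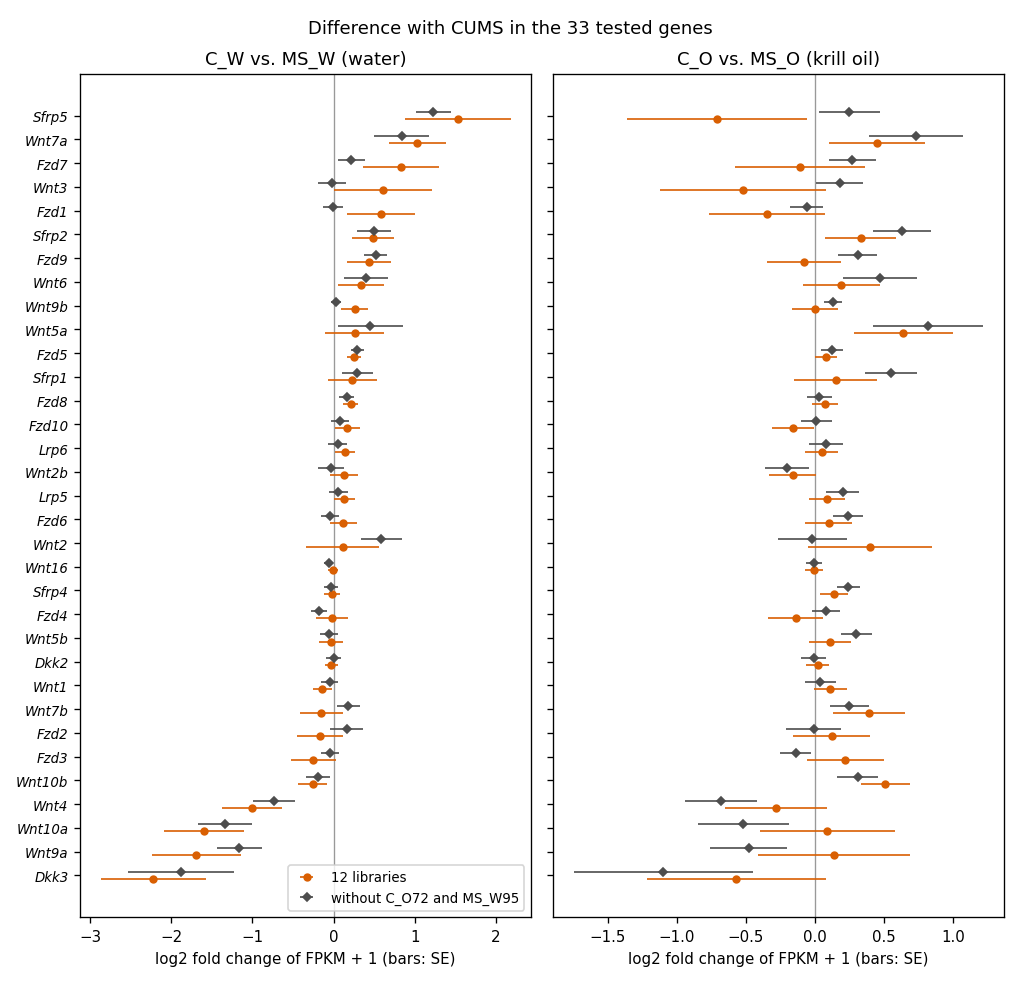
Log2 fold change of FPKM + 1 with CUMS in mice on water (left, C_W vs. MS_W) and on krill oil (right, C_O vs. MS_O) for the 33 tested genes, ordered by the left panel. Circles use 12 libraries and diamonds the 10 without C_O72 and MS_W95, and bars are SE. Dkk3, Wnt9a, Wnt10a and Wnt4 are at the bottom and Sfrp5 and Wnt7a at the top of the left panel, and the circles for Sfrp5, Wnt9a and Wnt10a in the right panel change side when the 2 libraries are left out.

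Krill oil without stress (C_W vs. C_O) gave no call among the 33 members in limma, against 3.55% of all genes, and no DEG, against 1.76%. edgeR called 1 member at p under 0.05 (4.47% of all genes) and DESeq2 3 (5.87%), with none after adjustment. Fzd5 was higher and Wnt1 and Wnt9a were lower in C_O without overlap, which is 3 members or 9.09% against 9.42% of all genes. Dkk3 had a log2FC of -1.16 (SE 0.65) and Wnt9a of -0.90 (SE 0.55), and the Sfrp5 mean was 9.59 times that of C_W, with 12.7 FPKM in C_O72 and 0.66 and 1.12 in the other C_O mice. On the 10 libraries without C_O72 and MS_W95 no member had a p under 0.05, against 4.06% of all genes, and the log2FC lay between -0.63 and 0.35. Without C_O15 4 members passed (8.26% of all genes), and without C_O30 (5.1%) or MS_O13 (3.93%) 1 did.

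In stressed mice (MS_W vs. MS_O), Wnt10b was again the single call. The mean of 0.974 FPKM in MS_O was 5 times the 0.195 ± 0.089 (SD, n = 3) of MS_W, and every MS_O mouse was above every MS_W mouse. Its log2FC was 0.71 (SE 0.18), with an adjusted limma p of 0.558. The call at an unadjusted p under 0.05 held under all 21 alternatives, in which the adjusted p lay between 0.135 and 0.98.

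It was 1 of 33 members against 6.09% of all genes, and 1 DEG against 2.81%. MS_W and MS_O did not overlap for 2 members, Wnt10b and Sfrp5, which is 6.06% against 12.3% of all genes. edgeR called 1 member at p under 0.05 (5.65% of all genes) and DESeq2 3 (7.32%), with none after adjustment. On the 10 libraries the count was 4 of 33, against 8.54% of all genes, with Wnt10b (0.65) and Fzd6 (0.28) higher and Sfrp5 (-0.63) and Fzd9 (-0.38) lower in MS_O. Without C_O72 alone it was 4 (9.12% of all genes), and without MS_O13 (9.1%) or MS_W31 (6.94%) it was 2.

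Olfactory bulb markers were high in the same mice as Wnt10b. A list of 8 such markers had a mean log2(FPKM + 1) of 4.62 in MS_O46 and 4.56 in MS_O78, against 2.52 in MS_O13, 3.39, 2.73 and 0.69 in MS_W, 0.97, 2.15 and 0.50 in C_O and 2.94, 3.11 and 1.22 in C_W. Wnt5a, a ligand of the branch without beta-catenin, was also highest in MS_O46 and MS_O78, with 3.22 and 2.08 FPKM against 0.29 to 1.49 elsewhere. It was not called by limma with 12 libraries, while DESeq2 called it from C_O to MS_O, as did limma without MS_O13. The part of the olfactory bulb in these values was not tested.

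Whether the CUMS difference itself differed between krill oil and water was tested by the interaction term. It had an unadjusted limma p under 0.05 in 4 of 33 members, or 12.1%, against 7.23% of all genes. Wnt10b (interaction log2FC 0.76, SE 0.25), Wnt10a (1.69, SE 0.70) and Wnt9a (1.82, SE 0.78) were positive and Sfrp5 (-2.24, SE 0.92) was negative. The adjusted p was 0.665 for each of them by limma. edgeR called 2 members at p under 0.05 (8.1% of all genes) and DESeq2 6 (10.1%), and after adjustment DESeq2 passed Sfrp5.

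The interaction calls depended on single mice too. Without C_W1 (5.51% of all genes) or MS_O13 (8.5%) 2 members passed, and without C_W64 (4.64%), C_W70 (5.83%) or MS_W95 (5.76%) 1 did. Without both C_O72 and MS_W95 the count was again 4, against 7.51% of all genes, but Wnt9a (0.68) and Wnt10a (0.81) no longer passed, and Sfrp4 (0.27) and Wnt5b (0.37) did. Wnt10b (0.50) and Sfrp5 (-0.98) passed both ways. Wnt10b passed the unadjusted threshold under all 20 alternatives, in which the adjusted p lay between 0.316 and 0.869.

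C_O72 and MS_W95 shared extreme levels of many members. Both lay above the other 10 libraries for 8 of 33 members (16.3% of all genes did so) and both below for 9 (11.7% of all genes). The genes above were Wnt3, Sfrp5, Fzd1, Fzd7, Wnt9b, Fzd4, Fzd10 and Fzd6, and those below Wnt9a, Wnt2, Wnt10a, Fzd3, Wnt7b, Wnt10b, Wnt4, Wnt1 and Fzd2. These libraries belong to different groups, and the values are a description with no test.

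Wnt3, a ligand of the canonical branch, had the widest gap. It was at 0.411, 0.547 and 1.04 in C_W, 0.543, 0.417 and 5.34 in C_O, 0.497, 0.755 and 5.06 in MS_W, and 0.489, 0.932 and 0.626 in MS_O. Fzd1 was at 2.2, 2.9 and 2.71, then 2.48, 2.75 and 5.68, then 2.72, 2.45 and 11.1, then 2.18, 2.67 and 2.59, and Fzd7, its close relative, at 1.08, 1.08 and 1.67, then 1.22, 1.56 and 4.31, then 1.41, 1.88 and 8.34, then 1.82, 2.4 and 1.49. Over the other 10 libraries Fzd1 ran from 2.18 to 2.9 and Fzd7 from 1.08 to 2.4. In the other direction, Wnt2 was at 1.24, 1 and 1.38 in C_W, 2.02, 1.6 and 0.175 in C_O, 1.44, 3.51 and 0.215 in MS_W, and 2.34, 1.68 and 1.39 in MS_O. The cerebellar and hindbrain lists given above were raised in the same 2 libraries, and their part in these values was not tested.

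**Figure D5:**
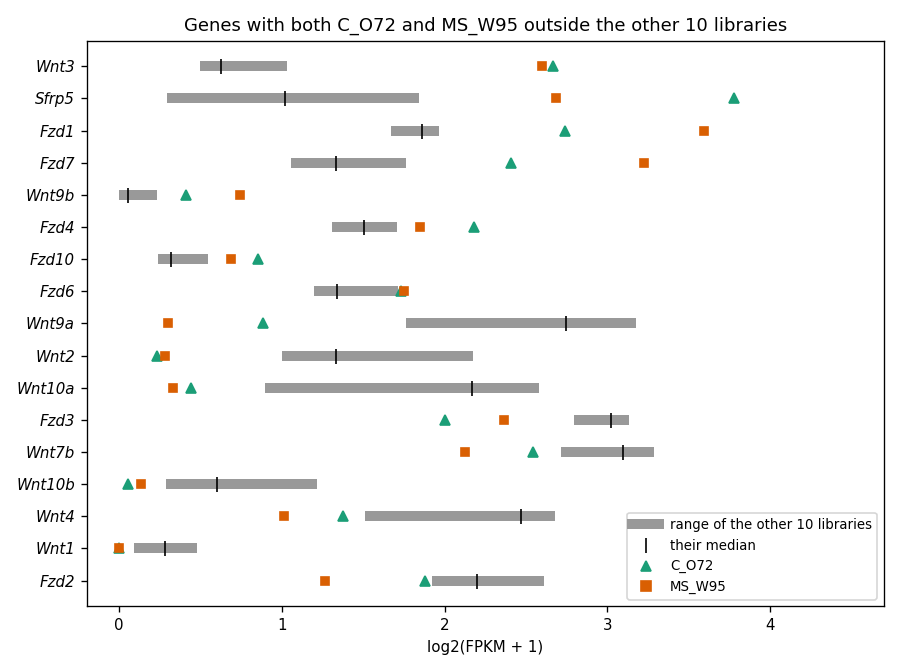
Log2(FPKM + 1) of the 17 members for which both C_O72 (triangle) and MS_W95 (square) lie outside the other 10 libraries, whose range is the grey bar and whose median is the black tick. Wnt3, Sfrp5, Fzd1 and Fzd7 lie far above the bar, and Wnt9a, Wnt2 and Wnt10a far below it.

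Some Wnt genes lie side by side in the genome, and the neighbours were compared. Wnt1 and Wnt10b are 11706 bases apart on chromosome 15 in opposite directions, and both were below the other 10 libraries in C_O72 and MS_W95. Wnt3 and Wnt9b are 24328 bases apart on chromosome 11, and both were above the other 10 in those libraries. Wnt6 and Wnt10a are 6193 bases apart on chromosome 1, and their log2FC from C_W to MS_W were 0.34 (SE 0.28, not called) and -1.60 (SE 0.49). The difference between these neighbours was not tested. Wnt3a, 16175 bases from Wnt9a, was listed without an estimate in 11 libraries.

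The wider pathway was described with 78 further genes, of which 77 were tested. From C_W to MS_W 9 were higher and 4 lower at a limma p under 0.05 (16.9%, against 10.5% of all genes). From C_O to MS_O 6 were higher and 2 lower (10.4%, against 8.88%), from C_W to C_O 1 was higher (1.3%, against 3.55%), from MS_W to MS_O 4 were higher and 2 lower (7.79%, against 6.09%), and in the interaction 3 were higher and 2 lower (6.49%, against 7.23%). None passed after adjustment in limma or edgeR with 12 libraries, while DESeq2 passed Ror1, Rspo4 and Tcf7l2 from C_W to MS_W, Lgr6 from C_O to MS_O and Gsk3b from C_W to C_O. On the 10 libraries without C_O72 and MS_W95 the limma shares in these 5 contrasts were 19.5, 18.2, 3.9, 9.09 and 11.7%, against 15.4, 13.6, 4.06, 8.54 and 7.51% of all genes, and Rspo4 passed from C_W to MS_W (adjusted limma p of 0.0366).

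Among nuclear factors, Tcf7l2, which binds beta-catenin at target genes, was at 0.363, 0.177 and 0.295 FPKM in C_W, 0.258, 0.442 and 0.562 in C_O, 0.643, 0.817 and 1.84 in MS_W, and 0.305, 0.512 and 0.537 in MS_O. All MS_W mice were above all others. The log2FC was 0.68 (SE 0.18) from C_W to MS_W and -0.49 (SE 0.18) from MS_W to MS_O, with adjusted limma p of 0.285 and 0.79. For the first of these the adjusted p lay between 0.00612 (DESeq2) and 0.651 over the alternatives, and DESeq2 alone put it under 0.05. Its relative Tcf7l1 had a log2FC of 0.52 (SE 0.17) from C_W to MS_W (adjusted limma p of 0.357).

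Of the secreted enhancers, the R-spondins Rspo1 and Rspo2 were called lower and Rspo4 higher from C_W to MS_W. Rspo4 was listed without an estimate in all C_W mice. It was at 0.0001, 0.0251 and 0.134 in C_O, 0.541, 0.281 and 0.0674 in MS_W and 0.0385, 0.118 and 0.0001 in MS_O. Rspo2 had means of 2.87 in C_W and 0.845 in MS_W (log2FC -1.09, SE 0.42, adjusted limma p of 0.422). Rspo1 had 5.68 and 1.84 (log2FC -1.25, SE 0.56, adjusted limma p of 0.473). Rspo1 and Rspo2 were not called without C_O72 and MS_W95. The Lgr receptors of the R-spondins, Lgr4, Lgr5 and Lgr6, were all called higher from C_O to MS_O. They were the 3 called of 15 listed genes for co-receptors and receptor turnover, against 8.88% of all genes. Lgr6 was at 3.89, 4.02 and 0.533 in C_W, 0.479, 1.73 and 0.977 in C_O, 4.56, 2.08 and 1.01 in MS_W, and 1.86, 14.1 and 13.4 in MS_O. From C_O to MS_O its log2FC was 2.09 (SE 0.68), with an adjusted limma p of 0.479. Over the alternatives that adjusted p lay between 0.0299 (DESeq2, the one under 0.05) and 0.957. As for Wnt10b and the olfactory bulb list, MS_O46 and MS_O78 carried the high values and MS_O13 did not. The part of the olfactory bulb in the Lgr6 values was not tested. The Wnt-binding Frzb (Sfrp3) was called higher from MS_W to MS_O, with a log2FC of 1.34 (SE 0.59) and an adjusted limma p of 0.815. Without C_O72 and MS_W95 the log2FC of Frzb was 0.73 and the call was lost.

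Inside the cell, Gsk3b, the kinase that marks beta-catenin for destruction, was at 2.92, 3.06 and 3.21 in C_W, 17.8, 9.32 and 8.81 in C_O, 9.11, 4 and 3.35 in MS_W, and 2.96, 2.93 and 8.79 in MS_O. It was the only gene of the wider list called from C_W to C_O, with no overlap, a log2FC of 1.61 (SE 0.41) and an adjusted limma p of 0.908. Over the alternatives that adjusted p lay between 0.0422 (DESeq2, the one under 0.05) and 1. Its interaction log2FC was -1.78 (SE 0.58) with an adjusted p of 0.665. Levels fell into a low range of 2.92 to 4 and a high range of 8.79 to 17.8, each in mice of several groups. Csnk1e, a casein kinase of the pathway, had an interaction log2FC of 0.58 (SE 0.19).

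Smaller differences were found for Dvl2, which relays the signal from Frizzled, with a log2FC of 0.45 (SE 0.12), and for the beta-catenin cofactor Bcl9l, with 0.30 (SE 0.09), both from C_O to MS_O with an adjusted limma p of 0.479. Kremen1, a receptor for Dkk proteins, differed by 0.24 (SE 0.10, adjusted limma p of 0.81) from MS_W to MS_O. Ctnnb1, the gene of beta-catenin, was called higher from C_W to MS_W, with a log2FC of 0.32 (SE 0.14) and an adjusted limma p of 0.46. Its mean was 71.2 ± 3.97 FPKM in C_W and 89.2 ± 1.37 in MS_W (SD, n = 3). Without C_O72 and MS_W95 it was not called. Of 14 common targets of beta-catenin, none was called from C_W to MS_W, against 10.5% of all genes. Apcdd1 and Lgr5 were called higher from C_O to MS_O, against 8.88% of all genes. Without C_O72 and MS_W95, 1 target was called higher from C_W to MS_W (15.4% of all genes were called). From C_O to MS_O 2 were then called higher and 1 lower (13.6% of all genes were called). The 5 genes for the secretion and release of Wnts had no call in any comparison with 12 libraries.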

How the data were processed

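The members and the gene lists were chosen with earlier results of these data known. The authors trimmed the reads, aligned them with HISAT2 2.0.4 to mm10 and assembled and merged transcripts with StringTie 1.3.4d, per the labels and the study's methods. The deposited FPKM values, scaled by the authors to transcript length and mapped fragments, were the measurement. The deposited estimated counts were proportional to FPKM (median deviation 0.00603% over 533 genes with a single transcript), so edgeR 4.0.16 and DESeq2 1.42.0 on the rounded counts add no independent data. Whether counting used strand is not given in the sources used here, and Wnt7b, Fzd6, Sfrp2, Wnt5a and Fzd5 overlap exons of a gene on the other strand.

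The test was limma 3.58.1 (lmFit, eBayes with trend, R 4.3.3) on log2(FPKM + 1), fitted once for all 4 groups. It covered 21393 genes (mean FPKM of 0.1 or more), and p was adjusted over these genes after Benjamini and Hochberg. A log2FC is the second group minus the first and understates changes of low genes. The fits were checked on simulated data. The alternatives changed the pseudocount (0.1 or 0.01) and the filter (none, or a mean of 1 FPKM), and used quantile normalization, median centring, fits of 2 groups, edgeR, DESeq2, the 10 libraries without C_O72 and MS_W95, and leaving out each library. When an arm keeps 2 mice, the spread is that of all groups. Named in full are the called members, the most abundant of each family and those with both C_O72 and MS_W95 outside the other 10 libraries, and up to 3 genes of the wider pathway per comparison. The GC box, Wnt5a beside the olfactory bulb list, Lgr4, Lgr5, Apcdd1 and the neighbouring Wnt genes were chosen after their values were seen. Start and end are those of the deposited table and equal GENCODE M21 for 36 members. Python 3.11.15, pandas 2.3.3 and matplotlib 3.10.9 made the tables and figures.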

Additional observations from a re-analysis of the deposited data

Results flagged for a closer look

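The CUMS difference on krill oil was set against that on water in an interaction test. At an unadjusted limma p under 0.05, 4 of 33 members differed, or 12.1%, against 7.23% of all genes. None differed after adjustment (adjusted limma p of 0.665 for each). For Wnt10b the interaction was 0.76, with a log2FC of -0.26 on water and 0.51 on krill oil. For Wnt10a it was 1.69, with -1.60 on water and 0.09 on krill oil. For Wnt9a it was 1.82, with -1.69 on water and 0.14 on krill oil. For Sfrp5 it was -2.24, with 1.53 on water and -0.71 on krill oil. Without C_O72 and MS_W95 the values were 0.50 for Wnt10b, 0.81 for Wnt10a, 0.68 for Wnt9a and -0.98 for Sfrp5 (adjusted p of 0.651, 0.756, 0.758 and 0.491), and Wnt10a and Wnt9a no longer had an unadjusted p under 0.05.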

How the results depend on the processing

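The called log2FC of the genes named in full were taken with each alternative listed above. Of the 577 values, 0 changed sign and 86 lost an unadjusted p under 0.05. Signs had little room to change, because only values already called were taken. In a pairwise comparison the log2FC also stays the same under some alternatives. These are another filter, a fit of only the 2 groups, and leaving out a library of a group not compared. Counts of calls moved as follows. With DESeq2, DEGs were 2 from C_O to MS_O (3.85% of all genes), 2 from C_W to C_O (2.83%) and 3 from MS_W to MS_O (3.16%). Members with p under 0.05 were 2 (10.6% of all genes), 3 (5.87%) and 3 (7.32%). With edgeR, DEGs were 0 from C_O to MS_O (3.28% of all genes) and 1 from C_W to C_O (2.38%). Members with p under 0.05 were 0 (8.54% of all genes), 1 (4.47%) and, in the interaction, 2 (8.1%). A mean of at least 1 FPKM left 0 DEGs and 0 members with p under 0.05 from C_O to MS_O and from MS_W to MS_O. Of all genes kept by that filter, 2.2% and 1.12% were DEGs and 9.76% and 5.64% had a p under 0.05. Fits of only the 2 groups compared gave 0 of both from C_O to MS_O and 2 of both from MS_W to MS_O. The shares of all genes in these fits were 3.08% and 2.43% for DEGs and 5.91% and 5.26% for p under 0.05. A pseudocount of 0.01 gave 0 of both from C_O to MS_O (DEGs 3.34% and p under 0.05 8.59% of all genes). From C_W to C_O it gave 1 of both (1.83% and 3.73% of all genes), as did a pseudocount of 0.1 (1.85% and 3.68%). Without C_O72 and MS_W95, members with p under 0.05 were 5 from C_O to MS_O (13.6% of all genes) and 4 from MS_W to MS_O (8.54%).

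With each library left out in turn, DEGs ranged from 3 to 7 (C_W to MS_W), 0 to 2 (C_O to MS_O), 0 to 4 (C_W to C_O) and 1 to 3 (MS_W to MS_O). The shares of all genes moved as well, from 3.49 to 5.63%, 2.22 to 5.85%, 1.17 to 4.15% and 2.16 to 4.38%. The 4 DEGs from C_W to C_O came without C_O15, where the share of all genes was 4.15%. Members with p under 0.05 ranged from 3 to 10, 0 to 4, 0 to 4 and 1 to 4, and from 1 to 5 in the interaction. The shares of all genes ranged from 6.66 to 15.8%, 4.29 to 13.8%, 2.2 to 8.26% and 3.72 to 9.12%, and from 4.64 to 10.2% in the interaction. No paired analysis was possible because the mice of different groups share no number. With 3 mice a group, the low levels of many members (under 1 FPKM) limit what these counts can show.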
